A study of Homo sapiens with 12 samples.

Results

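The transcripts described here encode 10 regulators of the ATF4-CHOP branch of the integrated stress response, namely ATF4, ATF5, DDIT3 (which encodes CHOP), TRIB3, CHAC1, SESN2, DDIT4, PPP1R15A, NUPR1 and CEBPB. They were chosen by gene symbol and make up 10 of the 28278 genes in the count table. RNA sequencing was carried out on K562, a human erythroleukaemia line, in 4 groups of 3 libraries. The groups were unedited cells (WT) and cells in which HRG1 was knocked out (KO), each left untreated or given sodium butyrate, a histone deacetylase inhibitor. HRG1 is a heme transporter encoded by SLC48A1. Treated cells received 0.75 mM sodium butyrate 24 h after plating and a further dose 48 h later, and RNA was taken 6 h after the later dose. The design text places the cells at day 8 of differentiation. The labels do not say how the knockout was made, how many clones it comprised or whether replicates were separate cultures, so p-values measure only the spread between these samples, which may be technical.

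In the integrated stress response, the kinases HRI, PKR, PERK and GCN2 phosphorylate the initiation factor eIF2, which lowers general protein synthesis while the mRNA of ATF4 is translated more. HRI, encoded by EIF2AK1, is held inactive by heme and is best known in erythroid cells, where it matches globin synthesis to the heme supply. ATF4 is a bZIP transcription factor that pairs with C/EBP proteins and activates genes of amino acid supply, further bZIP factors such as CHOP and ATF5, and proteins that feed back on the pathway.

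The promoters of CHAC1 and PPP1R15A are shown because they were the members whose windows held a searched response element. RefSeq promoter windows (GRCh38.p14, 300 bases around each annotated start, of which 250 lie upstream) were found for 9 of the 10 genes, NUPR1 having none. Each window was searched on both strands for TGATGNAA, the core of the C/EBP-ATF composite element (CARE) that ATF4 can bind, for TGACGTCA, the full cyclic AMP response element (CRE), for the palindromic C/EBP site TTGCGCAA, and for the endoplasmic reticulum stress element (ERSE). The 250 upstream bases follow, written 5′ to 3′ on the plus strand, on which both genes lie, with the match in capitals.
CHAC1, chr15:40953221-40953470: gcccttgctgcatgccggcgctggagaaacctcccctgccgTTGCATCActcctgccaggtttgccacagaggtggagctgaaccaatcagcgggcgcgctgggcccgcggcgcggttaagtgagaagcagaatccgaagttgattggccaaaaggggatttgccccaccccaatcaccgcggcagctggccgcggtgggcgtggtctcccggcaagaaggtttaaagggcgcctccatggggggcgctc
PPP1R15A, chr19:48872171-48872420: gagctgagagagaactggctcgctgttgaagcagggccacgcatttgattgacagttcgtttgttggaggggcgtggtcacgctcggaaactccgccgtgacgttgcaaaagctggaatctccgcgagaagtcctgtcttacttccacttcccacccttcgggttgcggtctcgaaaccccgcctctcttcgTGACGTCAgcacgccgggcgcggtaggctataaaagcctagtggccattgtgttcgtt

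The CHAC1 match is a CARE read on the minus strand and begins 209 bases upstream of the start. The PPP1R15A match is a CRE 58 bases upstream, and the CRE reads the same on either strand. A CARE was present in 3.62% of all 35116 promoter windows and a CRE in 1.85%. Neither the ERSE (0.0769% of windows) nor the palindromic C/EBP site (0.151%) occurred in a member's window. Among 42 other targets of ATF4 listed for comparison, 32 had a window and 14 of these held a CARE (43.8%). Counted by gene in the same way, 4.46% of all 27305 genes with a window held one. The promoters of CARS1, IARS1, MARS1 and SLC7A1 were among the 14. A match describes the letters of the window and does not show that a factor binds there.

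Library totals ran from 19963594 to 30348538 counts, and a count of 3 corresponded to 0.0953 to 0.162 CPM. CPM are counts scaled to the library total after its TMM correction, explained below. The knockout target, SLC48A1, had 1357 to 1945 counts in the WT libraries and 55 to 313 in the KO libraries, so the label held in all 12. All 12 K562 and erythroid markers exceeded 3 counts in every library, with a summed level of 17400 to 37900 CPM in treated WT against 2800 to 11600 CPM in the other groups. Of 4 fibroblast markers, at most 2 exceeded 3 counts in every library of a group, yet their summed level was 2.19 to 5.04 CPM in untreated and 43.9 to 154 CPM in treated libraries. COL3A1 was at 0 throughout both KO groups, and the summed B-cell, T-cell and monocyte markers stayed at or below 29.6 CPM. Summed epithelial markers reached 19.4 to 74.2 CPM, with KRT5 and KRT14 at 0 in all libraries. The share of counts from the ribosomal RNA gene RNA28SN5 ranged from 0.673% to 5.63% and was highest in replicate 1 of each group. In a principal component analysis of log2 CPM, the treated libraries of replicate 1 lay apart from those of replicates 2 and 3 on the second component, at 40.9 (WT) and 4.21 (KO) against -84.8 to -74.3. The part of these differences in the values below was not tested. In bulk RNA, fewer cells expressing a gene and less of its RNA per cell cannot be told apart.

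Untreated WT replicate 2 and, after butyrate, KO replicate 3 stood out across the set. Together the 10 genes took 0.172%, 0.293% and 0.134% of all counts in untreated WT replicates 1, 2 and 3, and 0.108%, 0.141% and 0.0908% in treated WT. The shares were 0.146%, 0.238% and 0.167% in untreated KO and 0.0603%, 0.0637% and 0.152% in treated KO. Within each untreated group the share was highest in replicate 2, and in treated KO replicate 3 had more than replicates 1 and 2. Over all tested genes, libraries of the same replicate number deviated together from their group means, so values are given by number throughout. For the members this did not always hold, as replicate 3 had the lowest share in treated WT (0.0908%) and the highest in treated KO (0.152%). Levels are in CPM after TMM scaling, which corrects library sizes for differences in composition. Changes are log2 fold changes from edgeR's quasi-likelihood test fitted to all 12 libraries, with the standard error (SE) and a p adjusted by Benjamini-Hochberg over 15805 genes, called below 0.05.

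**Figure D1:**
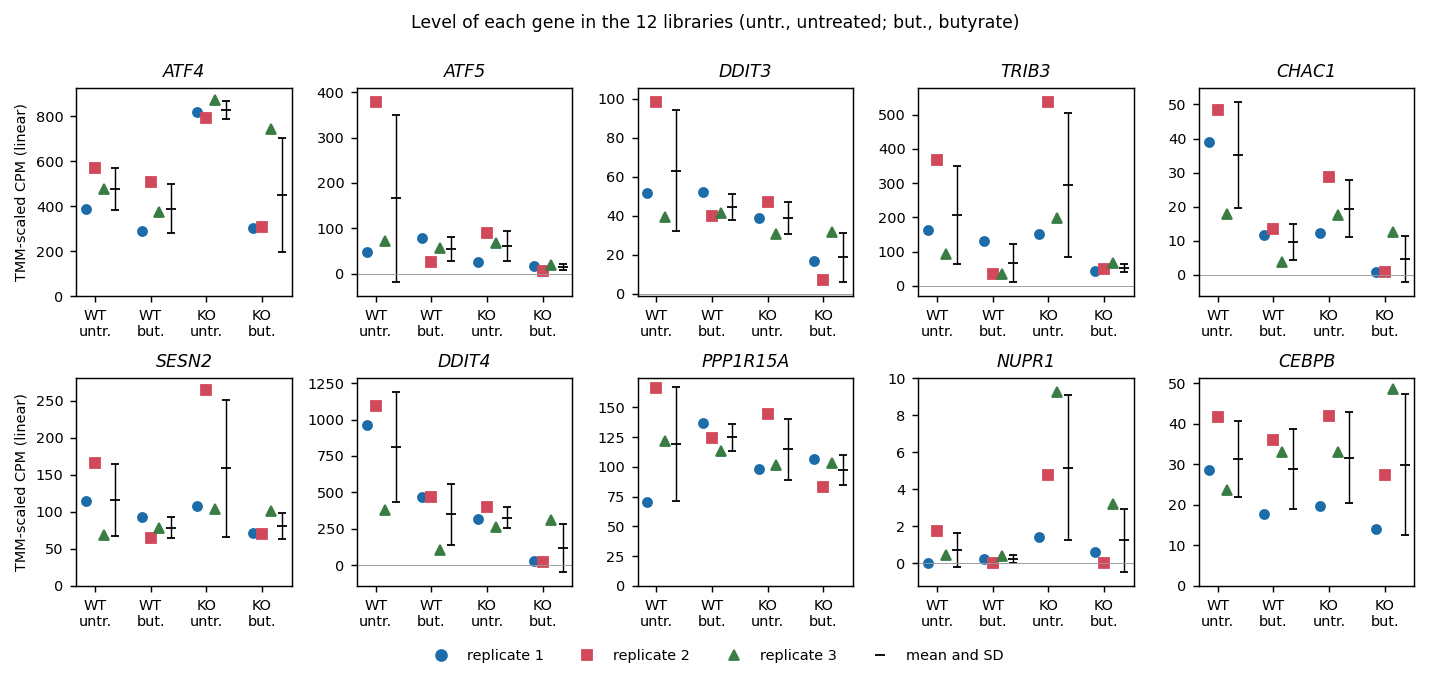
Level of each of the 10 genes in TMM-scaled CPM (linear axis, one panel per gene) in the 12 libraries, with points for replicates 1 to 3 and a bar for the group mean and SD (n = 3; some SD bars reach below 0). In untreated WT replicate 2 is the highest point in all 10 panels, and in treated KO replicate 3 is the highest in 9.

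ATF4, the central factor of the pathway (gene ID 468, chromosome 22, 39520559 to 39522686, GRCh38), was higher in every untreated KO library than in any other group. WT held 386, 571 and 475 CPM untreated and 290.0, 506 and 374 CPM with butyrate, in the order of replicates 1, 2 and 3. KO held 821, 793 and 872 CPM untreated and 302, 307 and 742 CPM with butyrate. Treated KO thus split, with replicates 1 and 2 at the level of the lowest WT libraries and replicate 3 near untreated KO. Untreated, KO exceeded WT by 0.80 (log2, SE 0.33, edgeR adjusted p = 0.109), with no overlap of the groups and a mean of 829 ± 39.9 against 477 ± 92.1 CPM (SD, n = 3 each). With the replicate number as a block the adjusted p was 0.0407, and it was 0.0159 when the untreated groups were fitted alone; these were 2 of 16 alternatives and the rest did not call it. On chromosome 22, which holds ATF4, 34.8% of the 417 tested genes were lower in untreated KO (median 0.28), and the part of this in the ATF4 value was not tested. In KO cells the log2 fold change with butyrate was -0.88 (SE 0.33, edgeR adjusted p = 0.165, or 0.0477 with the block), the groups again not overlapping. With library size alone as the scaling these KO groups overlapped, and the exact permutation p moved from 0.1 to 0.2. In WT cells the log2 fold change was -0.29 (SE 0.33, adjusted p = 0.707) and the groups overlapped. By number, the log2 difference of ATF4 with butyrate was -1.44, -1.37 and -0.23 in KO, and -0.41, -0.17 and -0.34 in WT.

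ATF5, a bZIP factor whose own mRNA is translated under stress in the manner of ATF4 (gene ID 22809, chromosome 19, 49928906 to 49933935), varied most in untreated WT. It reached 47.7, 377 and 72.1 CPM there and 79.2, 26.8 and 56.6 CPM in treated WT. KO values were 25.4, 90.0 and 67.3 CPM untreated and 17.6, 6.54 and 18.7 CPM with butyrate. Every treated KO library lay below all other libraries of the study. The log2 fold change of treated KO was -1.93 against treated WT (SE 0.74, edgeR adjusted p = 0.0913) and -2.09 against untreated KO (SE 0.75, adjusted p = 0.141). The difference between treated KO and treated WT was similar in all numbers, at -2.16, -2.02 and -1.60. In WT, butyrate gave 0.73 in replicate 1 against -3.81 in replicate 2 and -0.35 in replicate 3, and the fitted change of -1.61 (edgeR adjusted p = 0.269) was -0.15 without untreated WT replicate 2 and 0.18 without all libraries of that number. Exons of ATF5 share 626 bases with NUP62 on the opposite strand, a gene with 1649 to 4753 counts per library. Whether the counting used strand is not given in the sources used here, so reads of the pair cannot be told apart.

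DDIT3, which encodes CHOP, the factor tied to cell death under lasting stress (gene ID 1649, chromosome 12, 57516588 to 57520517), showed its lowest values in treated KO. WT held 51.8, 98.1 and 39.3 CPM untreated and 52.2, 40.0 and 41.6 CPM with butyrate. KO held 38.7, 46.8 and 30.4 CPM untreated and 17.0, 7.0 and 31.8 CPM with butyrate. Treated KO lay below treated WT without overlap, the nearest pair being 31.8 and 40.0 CPM. This difference was -1.26 (log2, SE 0.46, edgeR adjusted p = 0.0747) and ran -1.61, -2.50 and -0.39 by number. It was called in 3 of 16 alternatives, among them the fit without treated KO replicate 3. Butyrate in KO gave -1.05 (SE 0.46, adjusted p = 0.224), made up of -1.18, -2.73 and 0.07 by number, and in WT -0.50 (SE 0.45, adjusted p = 0.621). DDIT3 exons share 355 bases with MARS1 and 58 with MBD6, both on the opposite strand. MARS1, the methionyl-tRNA synthetase gene, had 3486 to 13695 counts per library, and its reads could reach the DDIT3 value if strand was not used.

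CEBPB, a C/EBP factor that can pair with ATF4 and with CHOP (gene ID 1051, chromosome 20, 50190583 to 50192690), was the member with the smallest group differences. Its WT values were 28.7, 41.7 and 23.6 CPM untreated and 17.6, 36 and 33.1 CPM with butyrate. Its KO values were 19.6, 42.0 and 33.1 CPM untreated and 13.9, 27.3 and 48.5 CPM with butyrate. The 4 groups overlapped, with means between 28.9 and 31.6 CPM. All 4 log2 fold changes lay between -0.12 and 0.05, each with an SE of 0.43. After butyrate CEBPB was lower in replicates 1 and 2 and higher in replicate 3 in both genotypes, by -0.70, -0.21 and 0.48 in WT and -0.49, -0.62 and 0.55 in KO. The antisense gene CEBPB-AS1, with 4 to 88 counts, shares 231 exon bases with it.

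TRIB3, a pseudokinase that is induced by ATF4 and CHOP and restrains both (gene ID 57761, chromosome 20, 380760 to 397559), gave the smallest adjusted p for butyrate among the 10 genes. WT held 163, 368 and 91.8 CPM untreated and 131, 35.8 and 34.4 CPM with butyrate. KO held 153, 535 and 197 CPM untreated and 43.5, 49.4 and 66.4 CPM with butyrate. All treated KO libraries were below all untreated KO libraries, the nearest values being 66.4 and 153 CPM. The mean was 53.1 ± 11.9 against 295 ± 209 CPM (SD, n = 3 each), and the log2 fold change was -2.47 (SE 0.65, edgeR adjusted p = 0.0578). It was called in 5 of 16 alternatives, the replicate block among them (adjusted p = 0.0296), and over all 16 the adjusted p ran from 0.00176 to 0.727. TRIB3 was lower after butyrate in all 6 pairs of libraries, by -0.31, -3.36 and -1.42 in WT and -1.81, -3.44 and -1.57 in KO. In WT the change was -1.63 (SE 0.63, adjusted p = 0.196). It was called without treated WT replicate 1, whose 131 CPM lay among the untreated libraries, and without all libraries of that number. KO and WT overlapped both untreated and treated, with adjusted p = 0.613 and 0.769.

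PPP1R15A encodes GADD34, the stress-induced subunit that leads a phosphatase to eIF2 and so ends the response (gene ID 23645, chromosome 19, 48872421 to 48876058). WT held 70.2, 166 and 122 CPM untreated and 136, 124 and 114 CPM with butyrate. KO held 98.1, 144 and 102 CPM untreated and 106, 83.0 and 103 CPM with butyrate. Treated KO lay just below treated WT without overlap, 106 against 114 CPM at the nearest. The difference was -0.36 (log2, SE 0.27, edgeR adjusted p = 0.414), and the remaining contrasts gave fold changes of -0.24 to 0.07. PPP1R15A is the member whose promoter held the CRE.

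CHAC1, which degrades glutathione and is a well-known target of ATF4 and CHOP (gene ID 79094, chromosome 15, 40953471 to 40956512), was lower after butyrate in every pair of libraries. WT held 38.9, 48.3 and 18.0 CPM untreated and 11.8, 13.6 and 3.72 CPM with butyrate. KO held 12.3, 28.6 and 17.5 CPM untreated and 0.919, 0.727 and 12.5 CPM with butyrate. The WT groups did not overlap, while in KO replicate 3 after butyrate reached the level of untreated replicate 1. The log2 fold changes were -1.86 in WT (SE 0.88, edgeR adjusted p = 0.294) and -2.03 in KO (SE 0.89, adjusted p = 0.229). By number they were -1.72, -1.83 and -2.25 in WT and -3.63, -5.15 and -0.48 in KO. Without treated KO replicate 3 the KO change was called, as was the difference of treated KO from treated WT. With all libraries that difference was -1.02 (SE 0.87, adjusted p = 0.473), made up of -3.57 and -4.08 in replicates 1 and 2 and 1.73 in replicate 3. CHAC1 is the member whose promoter held the CARE.

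DDIT4, or REDD1, an inhibitor of mTORC1 that ATF4, hypoxia and glucocorticoids can each induce (gene ID 54541, chromosome 10, 72273924 to 72276036), split in the same way. WT held 961, 1091 and 382 CPM untreated and 470.4, 471 and 104 CPM with butyrate. KO held 319, 403 and 259.8 CPM untreated and 26.4, 25.6 and 309 CPM with butyrate. Treated KO replicates 1 and 2 were the lowest libraries of all and replicate 3 lay within the untreated KO range. By number, butyrate gave -1.03, -1.21 and -1.87 in WT and -3.59, -3.97 and 0.25 in KO. The fitted changes were -1.22 in WT (SE 0.84, edgeR adjusted p = 0.498) and -1.44 in KO (SE 0.85, adjusted p = 0.378). Without treated KO replicate 3 the change in KO was -3.64 and was called (edgeR adjusted p = 0.0202). Untreated KO against untreated WT gave -1.31 (SE 0.85, adjusted p = 0.304), or -1.59, -1.44 and -0.55 by number. The antisense gene DDIT4-AS1 shares 847 exon bases with DDIT4 in GENCODE v29 and had no row of its own.

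SESN2, a stress-induced sestrin that senses leucine and holds back mTORC1 (gene ID 83667, chromosome 1, 28259518 to 28282491), had its highest values in the untreated replicates 2. WT held 114, 166 and 67.9 CPM untreated and 92.4, 64.4 and 78.6 CPM with butyrate. KO held 107, 265 and 103 CPM untreated and 71.2, 69.5 and 101 CPM with butyrate. The KO groups did not overlap, though 101 and 103 CPM lay next to each other, and with library size alone as the scaling the exact permutation p moved from 0.1 to 0.3. The log2 fold change was -0.97 in KO (SE 0.38, edgeR adjusted p = 0.181) and -0.56 in WT (SE 0.38, adjusted p = 0.486). By number it was -0.30, -1.36 and 0.21 in WT and -0.59, -1.93 and -0.03 in KO.

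NUPR1, a small stress-induced nuclear protein (gene ID 26471, chromosome 16, 28532708 to 28538974), was close to the limit of detection in WT. It had 0, 38 and 13 counts in untreated WT and 5, 0 and 13 in treated WT. KO libraries had 27, 101 and 277 counts untreated and 13, 0 and 99 treated. In CPM, untreated KO held 1.44, 4.80 and 9.26 and untreated WT 0, 1.76 and 0.437, so that replicate 2 of WT overlapped replicate 1 of KO. The fitted difference was 2.81 (log2, SE 1.5, edgeR adjusted p = 0.209), a value that depends on the prior count at such levels. Butyrate in KO gave -2.03 (SE 1.44, adjusted p = 0.473).

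None of the 10 genes passed the threshold for butyrate in WT, where 2.35% of all tested genes did. None passed in KO (3.4% of all), between the genotypes untreated (22.6%) or treated (19%), or for the interaction (0.0%). At an unadjusted p under 0.05 the members numbered 2, 6, 1, 2 and 0 in the same order, against 18.0%, 19.8%, 34.6%, 31.6% and 4.16% of all tested genes. DESeq2 called 0 members for butyrate in WT, 2 in KO (ATF5 and TRIB3), 0 untreated, 2 treated (ATF5 and DDIT3) and 0 for the interaction, against 8.42%, 9.73%, 28.5%, 25.2% and 0.544% of all tested genes in the same order. With the replicate block 0 members were called for butyrate in WT, against 8.61% of all tested genes, and 2 were called lower in KO (ATF4 and TRIB3), against 3.92% of all. ATF4 was then also called higher in untreated KO, against 16.9% of all.

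The direction of the butyrate values was shared by most members. In KO all 10 log2 fold changes were below 0 and their median was -1.25, while 49.3% of all tested genes were below 0 with a median of 0.00. In WT 9 of 10 were below 0 with a median of -0.89, against 47.5% and 0.02 over all genes. Without untreated WT replicate 2 the WT median was -0.15, and without all libraries of that number -0.06. Groups did not overlap for 4 members in KO, all lower with butyrate (ATF4, ATF5, TRIB3 and SESN2), compared with 11.8% of all tested genes. In WT this held for CHAC1 alone, compared with 10.4%. Between the genotypes it held for ATF4, higher in untreated KO (22.2% of all), and for ATF5, DDIT3 and PPP1R15A, lower in treated KO (16% of all). For each of these 9 cases the two-sided exact permutation p was 0.1, the lowest that can be reached with 3 libraries a group. With library size alone as the scaling it was 0.2 for ATF4 and 0.3 for SESN2 with butyrate in KO. The butyrate and genotype contrasts share libraries, so their values are not independent.

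**Figure D2:**
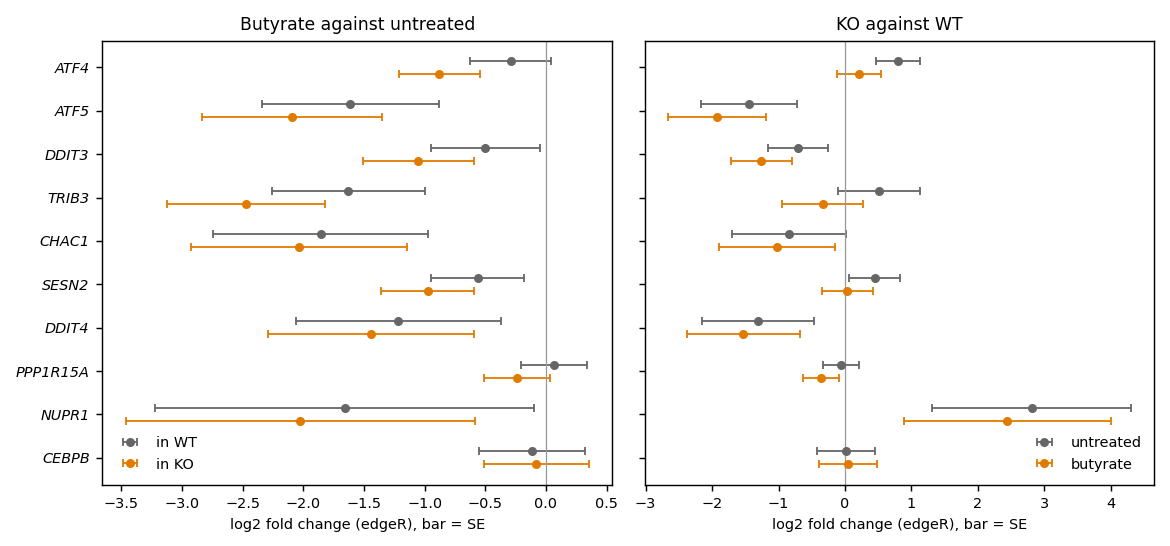
Log2 fold change of each gene from edgeR (horizontal axis) with its SE as a bar, for butyrate against untreated on the left (grey WT, orange KO) and KO against WT on the right (grey untreated, orange butyrate). In KO all 10 butyrate values lie below 0, and ATF4 and ATF5 lie on opposite sides of 0 when untreated KO is set against untreated WT.

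The change with butyrate differed in size between replicate numbers. Counting values at least 2-fold lower in the treated library of a pair, WT had 2, 7 and 3 members in replicates 1, 2 and 3, against 10.3%, 7.78% and 5.3% of all tested genes. KO had 6, 8 and 3 members, against 4.98%, 6.8% and 4.81% of all. The median difference over the members was -0.31, -1.33 and -0.22 in WT and -1.18, -3.08 and -0.13 in KO. The median was thus lowest in replicate 2 in both genotypes, but CHAC1 (-2.25) and DDIT4 (-1.87) were lowest in replicate 3 of WT, CEBPB (-0.70) in replicate 1 of WT and ATF4 in replicate 1 of either genotype. In replicate 3 of KO the median lay near 0 although TRIB3 (-1.57) and ATF5 (-1.85) were still lower. Lower values in all 3 numbers were seen for 4 members in WT, compared with 22.0% of all genes, and for 6 in KO, compared with 27.0%. The WT set was ATF4, TRIB3, CHAC1 and DDIT4.

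The genotype difference in treated cells changed sign with the number. Its median over the members was -0.98 and -0.65 in replicates 1 and 2 and 0.75 in replicate 3. CHAC1 and DDIT4 showed this most, and ATF5, DDIT3 and PPP1R15A were lower in KO in all 3 numbers. In untreated cells the medians were -0.26, -0.10 and 0.22, with ATF4 and NUPR1 higher and ATF5, DDIT3, CHAC1 and DDIT4 lower in KO in each number. The interaction, which asks whether butyrate acted differently in KO, gave log2 values of -0.85 (TRIB3) to 0.04 (CEBPB) with an adjusted p of 1.00 for each member. DDIT4 (-0.22, SE 1.18) and CHAC1 (-0.18, SE 1.21) had wide errors here, and NUPR1 (-0.37, SE 2.20) the widest.

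**Figure D3:**
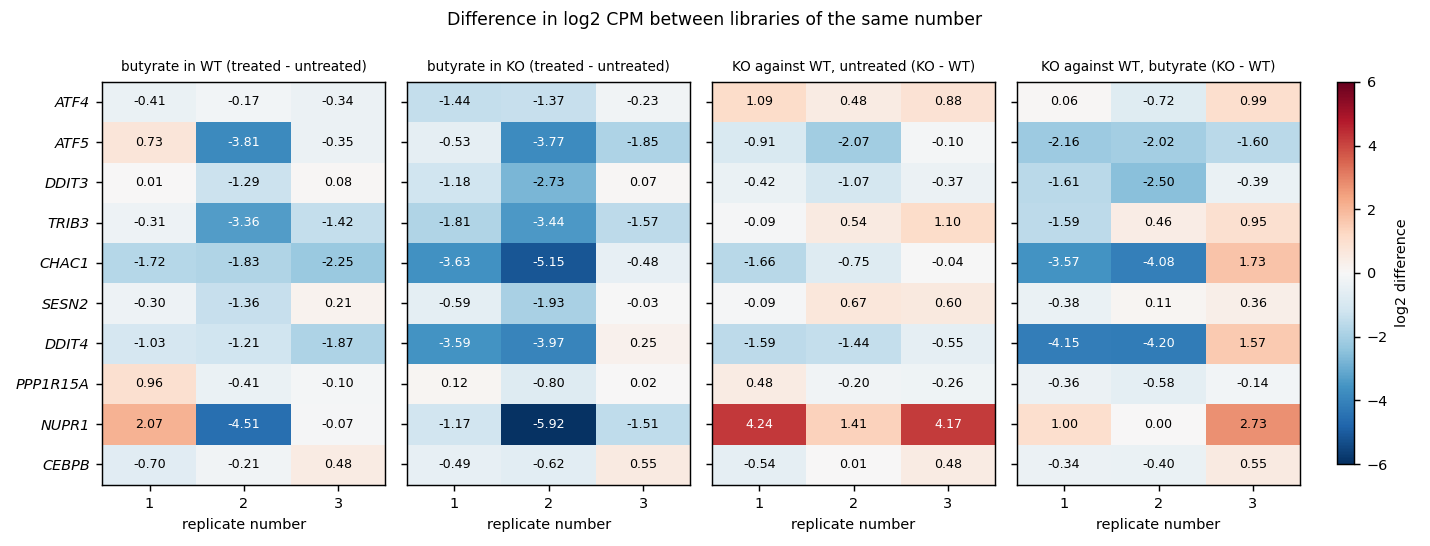
Difference in log2 CPM (colour, blue lower and red higher, value printed in each cell) between libraries that share a replicate number, for the 10 genes (rows) and replicates 1 to 3 (columns) in the 4 contrasts. The median butyrate difference is lowest in replicate 2 in both genotypes (-1.33 in WT and -3.08 in KO), though not for every gene, and in the panel of treated KO against treated WT the columns of replicates 1 and 2 are mostly blue while replicate 3 is red for CHAC1 (1.73), DDIT4 (1.57) and NUPR1 (2.73).

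In 3 of the 4 groups the highest level of most members fell in the same replicate. In untreated WT replicate 2 was highest for 10 of 10 members, while replicates 1, 2 and 3 were highest for 35.2%, 34.1% and 30.7% of all tested genes. In untreated KO the members numbered 0, 8 and 2, against 36.6%, 28.5% and 34.9% of all. In treated KO they numbered 1, 0 and 9, against 38.1%, 26.9% and 35.0%, and in treated WT 5, 4 and 1, against 40.3%, 26.3% and 33.4%. Of the 41 tested targets of ATF4 outside the set, 39 were highest in untreated WT replicate 2, 38 in untreated KO replicate 2 and 33 in treated KO replicate 3. In treated WT, where the members were split, 32, 5 and 4 of these targets were highest in replicates 1, 2 and 3. Of the 19 genes of endoplasmic reticulum folding, which answer mainly to XBP1 and ATF6, most were highest in replicate 1 of untreated WT. There replicates 1, 2 and 3 were highest for 14, 5 and 0 of them, and in untreated KO for 7, 6 and 6. The numbers were 10, 0 and 9 in treated KO and 10, 2 and 7 in treated WT. Whether these libraries differed from the rest in culture or handling is not given in the labels.

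**Figure D4:**
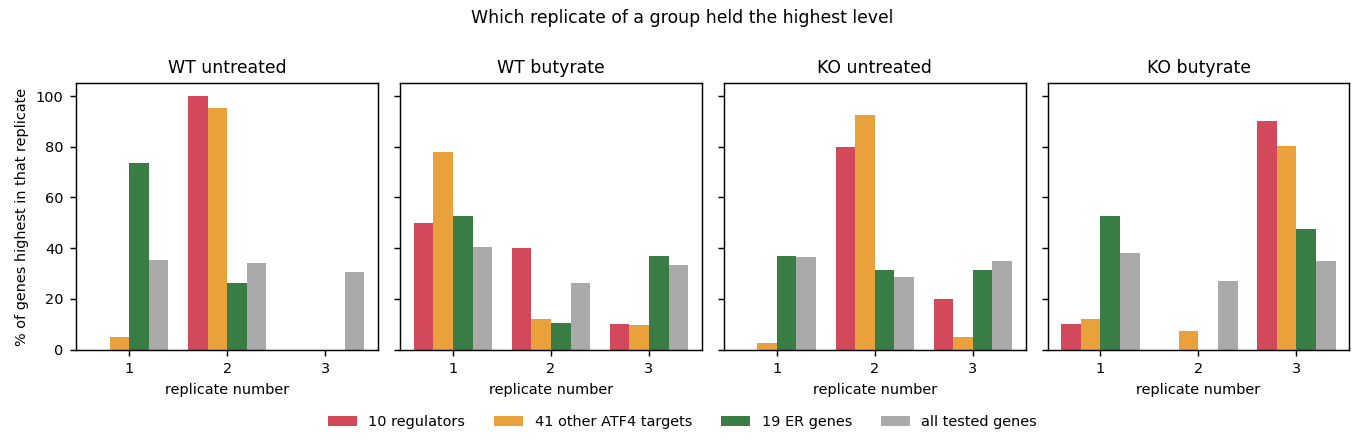
Percentage of genes (vertical axis, from 0) whose highest level within a group fell in replicate 1, 2 or 3 (horizontal axis), one panel per group, for the 10 regulators, 41 other ATF4 targets, 19 endoplasmic reticulum (ER) genes and all tested genes. The regulators and the other ATF4 targets peak in replicate 2 of both untreated groups and in replicate 3 of treated KO, while all tested genes spread over the replicates at 26.3% to 40.3%.

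Across the 12 libraries, with log2 CPM centred within each genotype, all 45 pairs of members had a correlation above 0, with a median Pearson r of 0.629. These points share their libraries and treatment, so the correlations are descriptions. CHAC1 and DDIT4 were the most alike (r = 0.980), followed by TRIB3 with SESN2 (0.896) and ATF5 with NUPR1 (0.879). PPP1R15A and CEBPB had the lowest correlation with each other (0.202) and the lowest mean with the rest (0.401 and 0.393). Among 10021 other genes with at least 50 counts in every library, those closest to the mean profile of the set were EIF1 (0.963), an initiation factor, CARS1 (0.963), the cysteinyl-tRNA synthetase, HAX1 (0.960), MTHFD2 (0.960), an enzyme of mitochondrial folate metabolism, and UBALD2 (0.947). Of the 50 closest genes, 18 belonged to the comparison lists, which made up 1.34% of the genes eligible. Members and lists were chosen with earlier results of these data known, so this count is a description too.

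Levels between genes were compared per kb of exon (GENCODE v29) in untreated WT. DDIT4 was highest at 394 ± 184 CPM per kb (SD, n = 3), ahead of ATF4 at 189.9 ± 36.6, and their ranges overlapped. TRIB3 (60.4), ATF5 (56.1), DDIT3 (48.3), PPP1R15A (38.5) and SESN2 (33.6) followed below ATF4 with no overlap with it, but with overlap between neighbours. CHAC1 (17.0) and CEBPB (16) overlapped each other, SESN2 and ATF5, and CHAC1 also overlapped PPP1R15A. NUPR1 (0.129) lay below all others. In untreated KO ATF4 was the highest, at 329.7 ± 15.9 CPM per kb, with no overlap with DDIT4 at 159.0 ± 34.9.

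The other ATF4 targets include amino acid transporters, aminoacyl-tRNA synthetases and enzymes of serine, one-carbon and proline metabolism, and also secreted factors such as VEGFA, STC2, GDF15 and FGF21 and the receptor gene VLDLR. They were examined beside the 10 regulators. For butyrate in KO 5 of 41 tested genes fell and 0 rose, and all 41 log2 fold changes were below 0 with a median of -1.13, where 3.4% of all tested genes were called and 49.3% were below 0. SLC7A11, the cystine transporter, held 112, 234 and 148 CPM in untreated KO and 12.7, 7.86 and 45.1 CPM in treated KO, with no overlap (log2 fold change -2.91, SE 0.56, edgeR adjusted p = 0.0200). SLC38A2, a neutral amino acid transporter, fell by 1.12 on the log2 scale (adjusted p = 0.0203), and the synthetase genes LARS1 and IARS1 by 0.96 and 1.28. PSPH, an enzyme of serine synthesis named after its values were seen, fell by 1.64. In WT 1 of 41 fell, SLC38A2 (log2 fold change -1.11, adjusted p = 0.0238), and the median was -0.65 with 39 below 0, where 2.35% of all genes were called and 47.5% were below 0. DESeq2 called 19 of the 41 lower in KO and 2 in WT, where it called 9.73% and 8.42% of all tested genes. The edgeR count in KO was 20 with the replicate block, which called 3.92% of all tested genes lower. It was 19 without replicate 1 of all groups, and 0 without replicate 2 of untreated KO, of treated KO or of all groups. In WT it was 14 without replicate 1 of all groups, 10 without treated WT replicate 1 and 0 without replicate 2 of untreated WT. Other single libraries left out gave 2 to 6 calls in KO and 0 or 1 in WT. Calls over the whole table moved with libraries left out as well. They were fewest, at 0, without replicate 2 of all groups. Without replicate 1 of all groups they were most, at 2164 in KO and 1884 in WT, against 537 and 372 with all libraries.

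**Figure D5:**
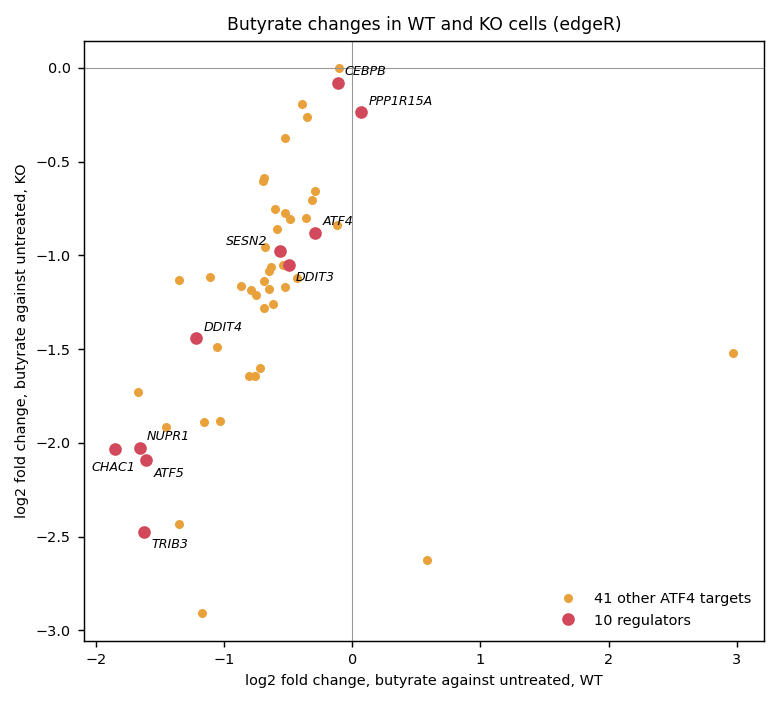
Log2 fold change with butyrate in WT (horizontal) and in KO (vertical) for the 10 regulators (red, named) and 41 other ATF4 targets (orange). All points lie below 0 on the KO axis, and in WT 9 of the 10 regulators and 39 of the 41 targets do.

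Between the genotypes 3 of the 41 targets passed the test untreated, where 22.6% of all tested genes did, and 3 passed with butyrate, where 19% did. In untreated KO VLDLR, a lipoprotein receptor, was higher (log2 fold change 6.91, SE 1.45, edgeR adjusted p = 0.00435), and NARS1 (-0.73) and VEGFA (-1.86) were lower. VLDLR held 0, 0.0928 and 0 CPM in untreated WT, under the level of 3 counts, and 1.87, 7.28 and 3.28 CPM in untreated KO. The size of its fold change thus depends on the prior count. With butyrate GARS1 (-1.09), NARS1 (-1.10) and VEGFA (-2.25) were lower in KO. NARS1 lies on chromosome 18, where 72.0% of the 189 tested genes were lower in untreated KO (median -0.52) and 76.7% in treated KO (median -0.61). GARS1 lies on chromosome 7, where 85.6% of tested genes were lower in treated KO with a median of -0.86. The part of these chromosome-wide differences in the values of NARS1 and GARS1 was not tested.

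Among 7 eIF2 kinases and their activators, none passed the edgeR test for butyrate in WT or KO, where 2.35% and 3.4% of all tested genes did. At an unadjusted p under 0.05 they numbered 1 and 2, against 18.0% and 19.8% of all. DESeq2 called 1 and 0 of them, against 8.42% and 9.73% of all. With the replicate block EIF2AK2, the gene of PKR, was called lower in both genotypes. Its log2 fold changes were -0.91 in WT (edgeR adjusted p = 0.0184) and -0.69 in KO (adjusted p = 0.0443). The block called 8.61% of all tested genes in WT and called 3.92% lower in KO. EIF2AK1, the gene of the heme-regulated kinase HRI, was lower in KO (gene ID 27102, chromosome 7, 6022247 to 6059175). It held 297, 359 and 345 CPM in untreated WT and 207, 213 and 185 CPM in untreated KO. With butyrate it held 328, 389 and 380 CPM in WT and 184, 173 and 191 CPM in KO. All KO libraries were below all WT libraries, and the log2 fold changes were -0.72 untreated (SE 0.16, adjusted p = 0.00623) and -1.0 treated (SE 0.16, adjusted p = 0.00103). On chromosome 7, 84.0% of the 730 tested genes were lower in untreated KO (median -0.78) and 85.6% in treated KO (median -0.86). The part of this chromosome-wide difference in the value of EIF2AK1 was not tested. OMA1, the mitochondrial protease that cleaves DELE1 upstream of HRI, was higher in untreated KO (1.18, adjusted p = 0.00205). Of the 7 genes, 1 was thus called higher and 1 lower untreated, where 22.6% of all tested genes were called. With butyrate 1 was called lower, where 19% of all were called.

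Of 12 subunits of eIF2, its exchange factor eIF2B and its phosphatases, EIF2B2 was higher in KO untreated (log2 fold change 0.64, edgeR adjusted p = 0.0216). With butyrate EIF2B2, EIF2B3 and EIF2B5 were higher in KO (0.73 to 0.82). The calls were thus 1 of 12 untreated and 3 of 12 treated, against 22.6% and 19% of all tested genes. On chromosome 14, which holds EIF2B2 and ERO1A, only 17.3% of the 475 tested genes were lower in untreated KO (median 0.63) and 16.2% in treated KO (median 0.57). On chromosome 3, which holds EIF2B5, 25.2% were lower in treated KO (median 0.45). Of 10 tested CHOP targets and death genes, 4 were called untreated and 3 treated, all higher in KO. Over all tested genes, 22.6% were called untreated and 19% treated, in either direction. ERO1A (0.79 and 0.87), DNAJC3 (1.13 and 1.49) and GADD45A (0.94 and 0.84) were higher in KO untreated and treated. DNAJC3 lies on chromosome 13, where 17.6% of the 267 tested genes were lower in untreated KO (median 0.94) and 17.2% in treated KO (median 0.83). The part of these chromosome-wide differences in the values of EIF2B2, EIF2B5, ERO1A and DNAJC3 was not tested. BCL2L11, which encodes the death inducer BIM, was higher in untreated KO (2.17) and rose with butyrate in WT (1.10). Of the 19 endoplasmic reticulum genes, none was called for butyrate by edgeR or DESeq2. Over all tested genes edgeR called 2.35% in WT and 3.4% in KO, and DESeq2 8.42% and 9.73%. At an unadjusted p under 0.05 edgeR gave 1 of the 19 in WT and 2 in KO, against 18.0% and 19.8% of all. With the replicate block XBP1 was called lower in KO (log2 fold change -1.30, edgeR adjusted p = 0.0210). PDIA6, a disulfide isomerase, was higher in KO untreated (0.82) and treated (0.88), and HYOU1, an ER chaperone, in treated cells (0.97). Of the 19 genes, 1 was thus called untreated and 2 treated, against 22.6% and 19% of all tested genes.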

How the data were processed

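The authors deposited raw counts per gene symbol for 12 libraries, with 0 columns unused and 0 lines without a gene name. The submitters' processing notes name STAR 2.7.11b, FastQC 0.12.1 and hg38. The counting tool, annotation and strand setting are not given in the sources used here. Groups and replicate numbers came from the titles.

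Counts were tested in R 4.3.3 with edgeR 4.0.16 (quasi-likelihood test, TMM, filterByExpr with a minimum count of 10, group means, 12 libraries), which kept 15805 genes including all 10 members. The procedure was first tested on simulated data. Differences by number used log2 CPM with a prior count of 2. Alternatives were DESeq2 1.42.0, its size factors, library size alone, other filters, a replicate block, only the groups compared, and libraries left out. The SEs come from the edgeR fit, and the SDs are over the 3 libraries of a group.

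The labels do not say what a replicate number stands for. Over all tested genes, deviations from group means correlated at 0.147 to 0.595 between libraries of the same number in all contrasts. For the differences by number and the replicate block, the numbers were therefore taken as pairs, from the data and not the design. The main edgeR test used group means without pairing. Between different numbers the highest correlations were 0.186 (butyrate in WT), 0.123 (butyrate in KO), 0.0692 (genotype, untreated) and 0.343 (genotype, treated), the last above the lowest same-number value of that contrast, 0.315.

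All 10 members are reported. Listed genes past the threshold were named, up to 4 per list and contrast by adjusted p, and the 5 genes most like the members were named. Members and lists were chosen with earlier results of these data known. Gene positions and promoters are from RefSeq (GRCh38.p14), and exon lengths from GENCODE v29.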

Additional observations from a re-analysis of the deposited data

How the results depend on the processing

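Among the members, 744 of the values recomputed under an alternative kept their direction and side of the threshold, 29 passed it only there and 72 changed sign. Members called for butyrate in KO numbered 1 with no filter and with only the groups compared (TRIB3 in each), and 2 with DESeq2 and with the replicate block. Untreated, KO against WT gave 1 with the block (ATF4) and 2 with only the groups compared (ATF4 and DDIT4). Treated, it gave 2 with DESeq2 and 1 with only the groups compared (ATF5). The block changed no other call among the members. Leaving out libraries gave 0 to 2 members for butyrate in WT, 0 to 3 in KO, 0 to 1 and 0 to 3 for the genotypes untreated and treated, and 0 for the interaction. Calls gained were ATF5 and TRIB3 without replicate 1 of all groups (both genotypes), TRIB3 without treated WT replicate 1, CHAC1 and DDIT4 without replicate 3 of all groups or treated KO replicate 3 (with ATF4 in the latter), DDIT4 untreated without replicate 3, and CHAC1, DDIT3 and DDIT4 in the treated contrast without replicate 3 or treated KO replicate 3. The cause was not tested.

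Genes called over the whole table for butyrate in WT were 372, against 1331 with DESeq2, 1361 with the block, 63 with only the groups compared and 0 to 1884 with libraries left out. In KO they were 537, against 304 with at least 10 counts in every library, 1538 with DESeq2, 1852 with the block and 0 to 2164. Untreated they were 3574, against 2334 with at least 10 counts and 1018 to 4314. Treated they were 3009, against 1947 with at least 10 counts, 4612 with the block, 1802 with only the groups compared and 684 to 4059. The interaction gave 0, against 2 with no filter, 1 with at least 10 counts, 86 with DESeq2, 3 with the block and 0 to 9. Among the fits with libraries left out, the lowest count in the 4 contrasts other than the interaction came without replicate 2 of all groups, and the highest in all 5 without replicate 1 of all groups.

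CEBPB changed sign around 0 in KO with butyrate (0.038 with library size alone, 0.00079 with at least 10 counts) and untreated (-0.012 with DESeq2's size factors, -0.013 with at least 10 counts and with DESeq2, -0.075 with the block). With libraries left out, log2 values that changed sign ranged as follows. For butyrate in WT they were -2.44 to 0.18 (ATF5), -0.76 to 0.043 (DDIT3), -0.28 to 0.38 (PPP1R15A), -2.79 to 0.53 (NUPR1) and -0.39 to 0.14 (CEBPB), and in KO -0.42 to 0.068 (PPP1R15A) and -0.61 to 0.26 (CEBPB). Untreated they were -1.91 to 0.026 (ATF5), -0.27 to 1.22 (TRIB3), -0.17 to 0.80 (SESN2), -0.32 to 0.26 (PPP1R15A) and -0.27 to 0.28 (CEBPB). Treated they were -0.40 to 0.62 (ATF4), -0.85 to 0.70 (TRIB3), -0.17 to 0.23 (SESN2) and -0.50 to 0.39 (CEBPB). For the interaction they were -1.55 to 0.10 (TRIB3), -2.84 to 0.73 (CHAC1), -0.76 to 0.18 (SESN2), -2.65 to 0.43 (DDIT4), -2.49 to 0.49 (NUPR1) and -0.49 to 0.38 (CEBPB). NUPR1 gave no value with at least 10 counts in every library, which it did not reach. At 0 to 38 counts in WT, a difference in NUPR1 was limited by depth.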

Other observations

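Other bZIP factors, which can pair with ATF4, CHOP or C/EBP proteins, moved in both directions. Of 31 tested, butyrate in WT raised FOS (log2 fold change 2.60, SE 0.53, edgeR adjusted p = 0.0293) and lowered CEBPD (-1.98, adjusted p = 0.0414). In KO it raised FOS (2.98, adjusted p = 0.0151) and FOSL2 (2.36) and lowered ATF3 (-2.27, adjusted p = 0.0381), a stress factor downstream of ATF4, and CEBPG (-1.5, adjusted p = 0.0286), a partner of ATF4. Over all tested genes, 2.35% were called for butyrate in WT and 3.4% in KO. ATF3 held 14.5, 38.9 and 17.9 CPM in untreated KO and 1.93, 3.67 and 9.15 CPM in treated KO. CEBPG held 95.5, 164 and 98.5 CPM and then 40.2, 33.4 and 53.2 CPM, without overlap in either gene. Against WT, KO cells had more CEBPA (2.72 untreated and 3.46 treated) and CEBPD (1.30 and 2.38) and less MAFK (-0.91 and -1.20). Of the 31 genes, 2 were called higher and 3 lower in untreated KO, where 22.6% of all tested genes were called. In treated KO 3 were called higher and 3 lower, where 19% of all were called. MAFK lies on chromosome 7, where 84.0% of tested genes were lower in untreated KO (median -0.78) and 85.6% in treated KO (median -0.86), and the part of this in its values was not tested.

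Near relatives of the members were looked up as well. TRIB2, a relative of TRIB3, was higher in KO (2.60 untreated, edgeR adjusted p = 3.25e-04, and 1.56 treated, adjusted p = 0.00908). SESN3, a relative of SESN2, was lower in KO (-3.30 untreated and -1.64 treated) and rose with butyrate in KO (3.10, SE 0.58, adjusted p = 0.0179).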
